A study of Rattus norvegicus with 192 samples.

Results

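Thyroid glands of adult male Crl:CD(SD) wild-type rats that received vancomycin and PFOS together were compared with thyroid glands of rats that received the corn oil vehicle. The comparison was defined by the sample titles: 12 thyroid libraries of the combination and 12 thyroid libraries of the vehicle, which are 24 of the 192 libraries of the series, with any library under 100000 total counts to be left out. All 24 stayed above that minimum. Combination rats were gavaged daily with 8 mg vancomycin and 3 mg PFOS per kg body weight, and vehicle rats with corn oil alone, for 7 days from postnatal day 56 to postnatal day 62. The other thyroid groups were PFOS alone (3 mg/kg/day) and vancomycin alone (8 mg/kg/day), and they entered the same statistical model. Hypothalamus, pituitary and liver were sampled under the same 4 treatments. The labels number the samples but do not say that each came from a separate rat, so p-values measure the spread between these samples.

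The follicular cell of the thyroid takes up iodide, secretes thyroglobulin (Tg) into the follicle lumen, iodinates it there with the help of hydrogen peroxide made by the dual oxidases, and later digests it to release thyroxine and triiodothyronine. The gland also holds calcitonin-secreting C cells, and in the rat the parathyroids are embedded in or attached to it. PFOS is a persistent perfluorinated surfactant known in rats for lowering circulating thyroxine, and vancomycin is a glycopeptide antibiotic that is poorly absorbed from the gut and acts on Gram-positive bacteria.

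Expression was measured by 3' bulk RNA barcoding sequencing, in which each RNA sample receives a short well barcode at reverse transcription and the samples are then pooled. Levels are given below as CPM, the counts divided by the library total after scaling by the trimmed mean of M values (TMM) and multiplied by 1e+06, and each gene is compared between groups, not with other genes. The libraries differed in depth along the treatment. Combination libraries held 208981 counts at the lowest, 383435.5 at the median and 554701 at the highest, against 299135, 841097 and 1136183 in vehicle libraries. The mean was 378578 ± 111728 counts in combination libraries and 797237 ± 294168 counts in vehicle libraries (SD, n = 12 each), a ratio of 0.475. On the log2 scale the combination was lower by a difference of -1.03 (two-sided permutation test with 1e+05 resamples, p = 0.00019), and 9 of 12 vehicle totals were above every combination total. Every combination library stood in row D and every vehicle library in row A of 1 plate, and an effect of the row cannot be told apart from one of the compounds. Of the 12 combination wells, 5 (replicates 44 to 48) carried barcodes with more than 1 G or C, while the other 7 combination wells and all 12 vehicle wells carried barcodes with 1. Totals ran from 208981 to 384857 counts in those 5 wells and from 337054 to 554701 in the other 7. The barcodes of the 2 deepest combination wells, of 2 of the 5 wells and of the deepest vehicle well are shown with each G and C in capitals, because this is a feature by which wells of the compared groups differed.
Combination replicate 42: tttatG
Combination replicate 38: ttaCta
Combination replicate 45: atCGaG
Combination replicate 48: GaaGaC
Vehicle replicate 4: aaGtta

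**Figure D1:**
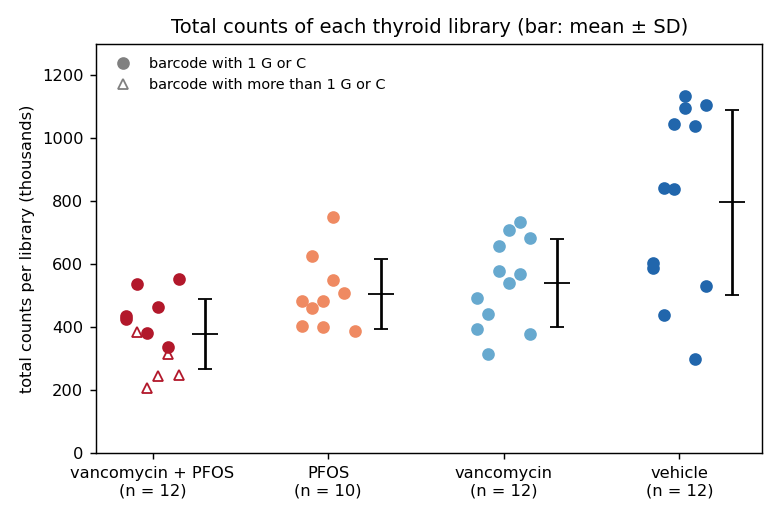
Total counts of each thyroid library (y axis, in units of 1000 counts) by treatment (x axis, combination at the left), with the mean ± SD beside each group and open triangles for barcodes with more than 1 G or C. The combination group had the lowest totals (208981 to 554701 counts), and 9 of 12 vehicle libraries lay above all of them.

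Defining markers of the gland were present in every library. Tg ran from 36610 to 80780 CPM in combination thyroids and from 36400 to 72960 CPM in vehicle thyroids. Parathyroid hormone (Pth), which marks attached parathyroid tissue, ran from 10630 to 61960 CPM in combination thyroids, against 28630 to 58930 CPM in vehicle thyroids, and calcitonin (Calca), from the C cells, from 6398 to 12400 CPM against 4826 to 10440 CPM. The cartilage marker Col2a1 had no count in 23 of the 24 libraries and the pituitary hormone gene Prl none in 21. Other markers of the tissues in the series were less often absent. Gh1 had no count in 5 libraries, Pomc in 6 and Mbp in 9. The liver genes Alb and Apoa1 and the neuronal gene Snap25 had counts in all 24 libraries. Whether these counts arose in the gland or came from another tissue was not tested. Of the skeletal muscle genes, Acta1 had no count in 2 of the 24 libraries and Ckm none in 11. Acta1 was high only in single libraries, where it reached 174 CPM in the combination and 80.3 CPM in the vehicle group, with medians of 6.83 and 3.3 CPM.

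The first question was which genes differed between the combination and the vehicle. Of 5091 genes tested, 150 passed at an adjusted p under 0.05 (edgeR quasi-likelihood F test, Benjamini-Hochberg), which is 2.95% of those tested. Of these, 49 rose (0.962%) and 101 fell (1.98%), and the falls were led by the protein-synthesis machinery. The changes were small. The median was 0.47 on the log2 scale for the genes that rose and -0.47 for those that fell, and the range over both was -1.30 to 0.88. In 75 of the 101 genes that fell, all 12 combination values were below the vehicle mean, and in 8 of the 49 that rose all 12 were above it. In none of the 150 genes (0 that rose, 0 that fell) were the 2 groups free of overlap. These counts describe genes picked by the same values and are no separate support for the calls. The matching shares over all 5091 genes are not given.

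With log2 total counts as a covariate in the same model, 0% of the genes passed. In that fit 0 genes were called by edgeR, the smallest adjusted p was 0.514 and 295 genes had an unadjusted p under 0.05, against 1021 without the covariate. DESeq2 with the same covariate also called 0. The covariate widened the median standard error to 0.22, from 0.17 without it, and it also moved the estimates. The genes that fell had a median of -0.10 with the covariate and those that rose a median of 0.24, while 143 of the 150 kept their sign. In 9 combination and 3 vehicle libraries whose totals lay in the range shared by both groups, 0 genes passed in edgeR (187 at an unadjusted p under 0.05). With every library thinned to 208981 counts, 99 genes passed, 83 of them among the 133 of the 150 that were still tested. Without the 5 combination wells whose barcodes had more than 1 G or C, 35 genes passed, 21 of them among the 150.

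Single libraries carried weight in the count of 150. Leaving out vehicle replicate 1, 5, 6, 9 or 10 gave 74, 60, 71, 64 and 78 genes, in that order, and leaving out combination replicate 39, 42, 45 or 47 gave 70, 84, 91 and 85. Leaving out vehicle replicate 11, the shallowest vehicle library, gave 268, and leaving out combination replicate 40 or 43 gave 226 and 242. Of the 47 genes that passed and are named by the rule stated in the processing section, 15 passed in each of the 24 fits that left out 1 library.

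**Figure D2:**
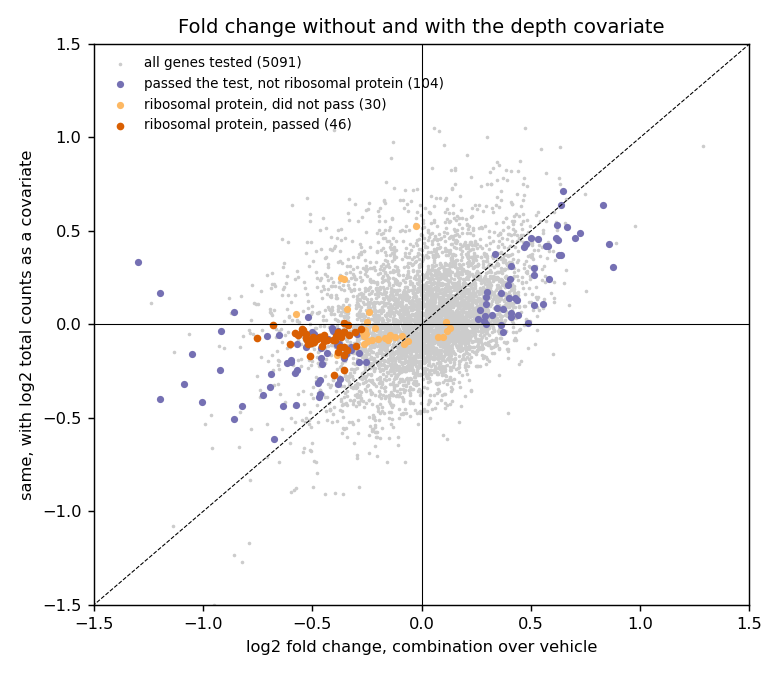
Log2 fold change of each gene, combination over vehicle, without (x axis) and with (y axis) log2 total counts as a covariate. Dots are genes, and the dashed line marks equal values. The 46 ribosomal protein genes that passed lie left of 0 on the x axis and close to 0 on the y axis, and 1 gene lies outside the drawn range.

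Cytosolic ribosomal proteins form the small and large subunits of the ribosome, and their mRNAs are known for starting with a run of pyrimidines, the 5' terminal oligopyrimidine tract, through which mTOR signalling controls their translation. They were the largest group among the genes that fell. Of 79 listed genes 76 were measured, 46 fell, 0 rose, and 71 had a log2 fold change below 0. Their median was -0.36, with a range of -0.76 to 0.13, while the median of all genes tested was 0.03. The 46 were 45.5% of all genes that fell, and outside this list 55 of 5015 genes fell (1.1%). Both subunits were involved. Of 30 small-subunit genes 19 fell (median -0.40), and of 46 large-subunit genes 27 fell (median -0.35). Many of these genes have processed pseudogenes and near-identical copies in the rat genome, so the assignment of reads to a single gene is uncertain.

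Rpl7a, a large-subunit protein, had 836 CPM at the lowest, 1040 at the median and 1245 at the highest in combination thyroids, against 976.5, 1413 and 1683 CPM in vehicle thyroids. All 12 combination values were below the vehicle mean, although the ranges overlapped. Its log2 fold change was -0.39 ± 0.08 (SE, adjusted p = 0.0116, edgeR), and -0.15 with the covariate (adjusted p = 0.875). Rps20, of the small subunit, had 718, 1065 and 1320 CPM (lowest, median, highest) in combination thyroids and 1079, 1565 and 1800 CPM in vehicle thyroids, a log2 fold change of -0.51 ± 0.11, or -0.17 with the covariate. Rpl24 fell by 0.60 on the log2 scale and Rps16, which sits in the small subunit, by 0.40, and their estimates with the covariate were -0.10 and -0.27. Rps12 had the largest fall of the list, with 367, 512 and 693 CPM in the combination and 486, 753 and 1433 CPM in the vehicle group. Its log2 fold change was -0.76 ± 0.18, and -0.07 with the covariate (adjusted p = 0.983, edgeR). These 5 genes passed in every fit that left out 1 library. Of the 5 members not below 0, Rpl35 was highest at 0.13 ± 0.08 (adjusted p = 0.326, edgeR).

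The pyrimidine run is visible at the RefSeq start of many of these genes (GRCr8 promoters, matched by symbol). A C followed by at least 4 further C or T letters, read on the gene's own strand from the first transcribed base, stood at the start of 23 of the 60 measured ribosomal protein genes with a promoter entry (38.3%) and of 2.63% of all 27457 RefSeq promoters. Among ribosomal protein genes that fell it stood at 11 of 33 starts (33.3%), and among those that did not pass at 12 of 27 (44.4%). The run is thus shared by members that passed and members that did not. The first 5 lines are the genes with the run and the smallest p-values, shown with the run in capitals, and the last 2 are genes of the smallest p-values whose RefSeq start does not show it. Each line gives 15 bases on either side of the start, on the gene's strand.
Rps7, chr6:50999431-50999460, minus strand: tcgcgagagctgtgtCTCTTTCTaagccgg
Rps15, chr7:10068101-10068130, minus strand: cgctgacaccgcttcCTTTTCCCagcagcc
Rpl22, chr5:168117946-168117975, plus strand: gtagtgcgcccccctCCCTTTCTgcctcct
Rpl10, chrX:157205835-157205864, plus strand: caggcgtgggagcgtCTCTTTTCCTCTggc
Rpl19, chr10:83519049-83519078, plus strand: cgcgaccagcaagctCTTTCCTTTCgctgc
Rpl7a, chr3:30637121-30637150, plus strand: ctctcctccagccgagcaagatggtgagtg
Rps16, chr1:92770643-92770672, plus strand: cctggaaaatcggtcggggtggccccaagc

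The log2 fold changes of these 7 genes were -0.49 for Rps7, -0.51 for Rps15, -0.55 for Rpl22, -0.54 for Rpl10, -0.39 for Rpl19, -0.39 for Rpl7a and -0.40 for Rps16.

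The share of all counts that fell on the ribosomal protein genes was 11.04% at the lowest, 14.11% at the median and 15.95% at the highest in combination thyroids, against 13.32%, 16.51% and 19.22% in vehicle thyroids. In the range of depth that both groups share, the median share was 13.97% in 9 combination libraries and 13.68% in 3 vehicle libraries. With the covariate the list's median was -0.07, 67 of 76 values were below 0 and none passed (0 fell, smallest adjusted p = 0.815, edgeR). The list's fall also moved with other choices. The number that fell was 20 with plate column in the model, 6 without the 5 combination wells of unlike barcodes, 42 after thinning and 28 without vehicle replicate 5, while the list's median was -0.36, -0.40, -0.36 and -0.34 in these fits. With only the 2 combination libraries above 500000 counts and 10 vehicle libraries, 35 fell and the median was -0.50.

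**Figure D3:**
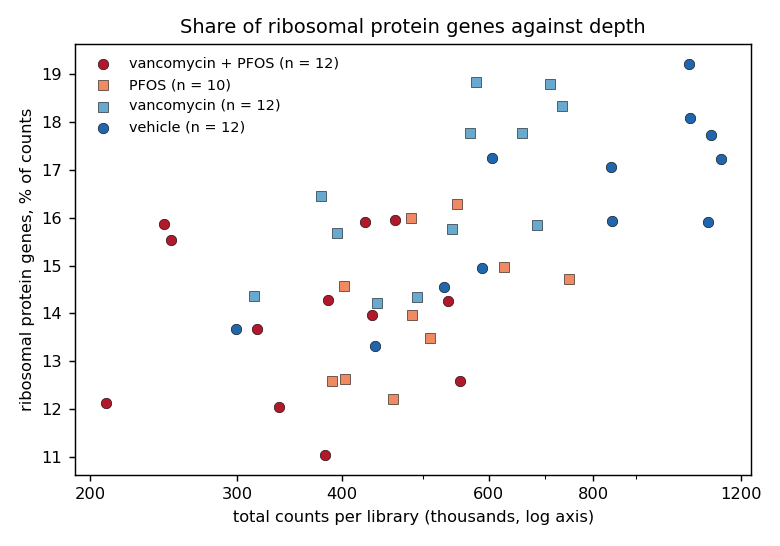
Share of each library's counts on ribosomal protein genes (y axis, percent) against its total counts (x axis, in units of 1000 counts, log axis) in the 4 thyroid groups. Combination libraries ranged from 11.04% to 15.95%, and the 3 vehicle libraries within the combination group's range of depth from 13.32% to 14.56%.

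Other parts of the translation machinery that passed, named after their values were seen, were Rack1, a scaffold on the small subunit (log2 fold change -0.43 ± 0.10), and Eef1a1, the elongation factor that delivers aminoacyl-tRNA (-0.50 ± 0.12). The initiation factor 3 subunits Eif3i and Eif3c stood at -0.33 and -0.38, and Btf3, part of the nascent polypeptide-associated complex, at -0.30. With the covariate the estimates of these 5 genes lay between -0.12 and -0.04.

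A few members of other lists fell singly. Gapdh, the glycolytic enzyme often used as a reference gene, had 1521, 1862 and 2500 CPM (lowest, median, highest) in combination thyroids, against 1906, 2558 and 3909 CPM in vehicle thyroids. All 12 combination values were below the vehicle mean, and the log2 fold change was -0.60 ± 0.13 (adjusted p = 0.0116, edgeR), or -0.19 with the covariate. It was the only one of 18 measured glycolysis and hypoxia genes that passed. Sod1, the cytosolic superoxide dismutase, had 541, 737 and 1051 CPM in the combination and 835, 999.9 and 1399 CPM in the vehicle group. Its log2 fold change was -0.53 ± 0.11, or -0.12 with the covariate (adjusted p = 0.925, edgeR), and that of the peroxiredoxin Prdx5 was -0.39 ± 0.11, or -0.11 with the covariate. These were 2 of 16 measured peroxide-handling genes, whose median was -0.07, where 1.98% of all genes tested fell. NRF2 response genes had 0 of 18 past the test and a median of -0.11.

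Chaperones fell in 2 of 14 cases. Cct2, a subunit of the cytosolic chaperonin, had 96.1, 138 and 172 CPM in combination thyroids and 103, 197 and 216 CPM in vehicle thyroids (log2 fold change -0.43 ± 0.10, adjusted p = 0.0142, edgeR), and Hsp90ab1, the constitutive HSP90, fell by 0.40. With the covariate they stood at -0.15 and -0.04. The 20S proteasome subunit Psmb7 fell by 0.29 (-0.20 with the covariate), which is 1 of 36 proteasome genes and near the 1.98% of all genes that fell. The list of endoplasmic reticulum folding genes had 0 of 24 past the test.

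Of the MHC class II, interferon response and matrix lists, 4 genes fell in all (1 of 6, 1 of 13 and 2 of 10 measured), where 1.98% of all genes tested fell. Like every other call, these were lost with the covariate. RT1-Db1, a rat MHC class II beta chain, had 62.2, 105 and 121 CPM in combination thyroids, against 110, 143.5 and 228 CPM in vehicle thyroids. The overlap was small, with the lowest vehicle value above the combination median, and the log2 fold change was -0.64 ± 0.12 (adjusted p = 0.0116, edgeR), or -0.43 with the covariate (adjusted p = 0.759). It was 1 of 6 measured class II genes, of which all 6 were below 0 with a median of -0.14. B2m, the light chain of MHC class I, fell by 0.57 as the single member past the test among 13 interferon response genes, 12 of which were below 0 (median -0.37, or -0.32 with the covariate). B2m itself was at -0.10 with the covariate. Macrophage markers were below 0 in 12 of 12 cases with 0 past the test (median -0.26, Lyz2 -0.40, adjusted p = 0.0761, edgeR), and globin and other blood cell markers in 7 of 8, also with 0 past the test (median -0.40, Hbb -0.54, adjusted p = 0.0862). The median of all genes tested was 0.03, and the share of them below 0 is not given. With the covariate the macrophage median was -0.20 (10 of 12 below 0) and the blood cell median -0.37 (8 of 8 below 0), again with 0 past the test. In bulk tissue, fewer cells of a type and less RNA per cell cannot be told apart, and no macrophage or blood cell marker passed.

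Mgp, the matrix Gla protein that inhibits calcification, had 279, 459.5 and 628 CPM in combination thyroids and 547, 724 and 1183 CPM in vehicle thyroids, a log2 fold change of -0.70 ± 0.15 that was -0.34 with the covariate. Sparc, a collagen-binding matrix protein, had 533, 590.1 and 769 CPM against 552, 820.2 and 1269 CPM. Its log2 fold change was -0.46 ± 0.12 (adjusted p = 0.0245, edgeR), or -0.18 with the covariate. The other 8 measured fibroblast and matrix genes did not pass. Among them the collagen gene Col1a2 stood at -0.63 ± 0.21 (adjusted p = 0.0904, edgeR) and the median of the list was -0.12.

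Apart from Rps12 and Mgp, the 15 largest falls on the log2 scale were as follows. Siah1, a ubiquitin ligase, had 0, 13.4 and 30.1 CPM in combination thyroids and 9.33, 26.6 and 72.7 CPM in vehicle thyroids (log2 fold change -1.30 ± 0.37), and its estimate was 0.33 with the covariate. Utrn, the dystrophin relative utrophin, stood at -1.20 and Ptpre, a receptor-type tyrosine phosphatase, also at -1.20, with 0.17 for Ptpre under the covariate. The others were Styxl1, the kinase subunit Csnk2a1, the general transcription factor subunit Gtf2f1, the tubulin chaperone Tbcd, Gnl1, the laminin receptor Bcam, the calcium-binding S100a4, Ctla2a, the mast cell protease Mcpt1l1 and the GTPase Rab18, between -1.09 and -0.71. Bcam was at 0.07 under the covariate.

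**Figure D4:**
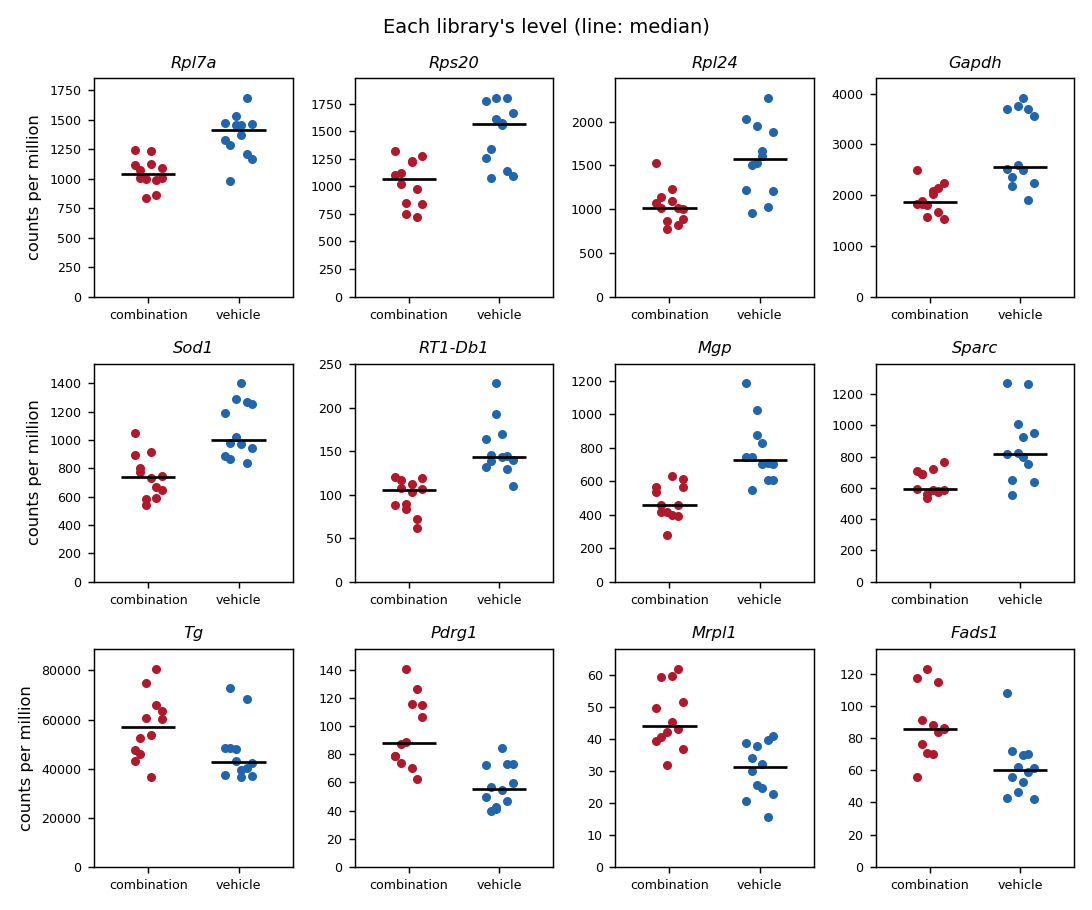
Level of 12 genes in each thyroid library (y axis, TMM-scaled CPM, starting at 0), combination left of vehicle, with the median as a line. The groups overlapped in every panel. The first 8 genes fell, Tg did not pass the test, and Pdrg1, Mrpl1 and Fads1 rose.

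Genes that rose did so by less than 1 on the log2 scale. Of the 49, 45 were outside the 40 lists, as were most of all genes tested, so this is not a trait of the genes that rose. Pdrg1, a prefoldin-like protein known as a p53 and DNA damage regulated gene, had 62.2, 88.1 and 141 CPM (lowest, median, highest) in combination thyroids, against 39.4, 55.4 and 84.7 CPM in vehicle thyroids. Every combination value was above the vehicle mean. Its log2 fold change was 0.70 ± 0.14 (adjusted p = 0.0116, edgeR), and 0.46 with the covariate (adjusted p = 0.815). Mrpl1, a mitochondrial ribosomal protein, had 32.1, 44.3 and 62.2 CPM in the combination and 15.7, 31.2 and 41.1 CPM in the vehicle group. It rose by 0.66 ± 0.14 (0.52 with the covariate) while the other 53 measured mitochondrial ribosomal proteins did not pass and the list's median was 0.00.

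Larger estimates with less support came from Zc3hc1, a nuclear pore basket protein (0.88 ± 0.26, adjusted p = 0.0478, edgeR), Fbxo38, an F-box protein (0.86 ± 0.24), and Trmt61a, the catalytic subunit of a tRNA methyltransferase (0.83 ± 0.24). With the covariate they stood at 0.31, 0.43 and 0.64, and they passed in 8, 11 and 11 of the 24 fits that left out 1 library. The phosphatase subunit Ppp2r3c, the catenin-like Ctnnal1, the mitochondrial threonyl-tRNA synthetase Tars2, the nucleotidase Entpd6, Jpt2, the cytochrome oxidase assembly factor Coa5, the elongation factor Supt5h, LOC294154, Ttc5 and the kinase-anchoring protein Gskip completed the 15 largest rises, between 0.58 and 0.73. Of these, LOC294154 passed in all 24 such fits and Ppp2r3c in 22, while the others passed in 4 (Ctnnal1) to 16 (Coa5). Selenof, a selenoprotein of the endoplasmic reticulum named after its values were seen, rose by 0.33 ± 0.07 and had the smallest adjusted p with the covariate (0.514), where its estimate was 0.38.

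In oxidative phosphorylation 2 of 73 measured genes rose and 1 fell, where 0.962% of all genes tested rose and 1.98% fell, so these are values of single genes and not of the pathway. The complex I subunits Ndufb4 and Ndufb8 rose by 0.32 ± 0.09 and 0.34 ± 0.10. With the covariate their estimates were 0.05 and 0.09, and they passed in 12 and 10 of the 24 fits that left out 1 library. Ndufb4 had 2036, 2483 and 3364 CPM in combination thyroids, against 1485, 1992 and 2644 CPM in vehicle thyroids. Atp5mc3, a c subunit of ATP synthase, fell by 0.47 ± 0.14 (adjusted p = 0.045, edgeR), with -0.07 under the covariate, and the list's median was 0.01. Fads1, the delta-5 fatty acid desaturase, had 55.7, 85.8 and 123 CPM in the combination and 42.3, 60.2 and 108 CPM in the vehicle group, and rose by 0.53 ± 0.14 (adjusted p = 0.0222, edgeR), or 0.46 with the covariate. It was the single call among 8 fatty acid synthesis genes, next to Acsl1 at 0.48 ± 0.14 (adjusted p = 0.0503, edgeR). Cholesterol synthesis genes had 0 of 13 past the test, with a median of 0.07.

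No measured member of the 2 thyroid lists passed: 0 of 15 in the hormone synthesis list and 0 of 4 transcription factors, with medians of 0.03 and 0.21. Slc26a4, Kcne2, Kcnq1 and Slc5a8 were listed for synthesis but were not measured. Tg had 36610, 56910 and 80780 CPM (lowest, median, highest) in combination thyroids, against 36400, 42620 and 72960 CPM in vehicle thyroids. The groups covered nearly the same range, and the log2 fold change was 0.29 ± 0.12 (adjusted p = 0.153, edgeR) without and 0.00 with the covariate. The dual oxidase maturation factor Duoxa1 stood at 0.44 ± 0.14 (adjusted p = 0.0794, edgeR), the thyrotropin receptor Tshr at 0.40 ± 0.15 (adjusted p = 0.106), and the deiodinase Iyd, which recycles iodide, at 0.18 ± 0.09 (adjusted p = 0.28).

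For the iodide transporter Slc5a5 the log2 fold change was 0.06 ± 0.17, for the iodide-handling transporter Slc26a7 -0.07 ± 0.23, and for Duox1 and Duox2, the hydrogen peroxide generators, 0.12 ± 0.22 and -0.24 ± 0.24. Duoxa2 (-0.01), Ano1 (0.03), Cybrd1 (-0.02), Pdia3 (0.22), Asgr1 (-0.06) and Fcgrt (-0.33, adjusted p = 0.0904, edgeR) were further measured members of the synthesis list. The transcription factors that specify follicular cells stood at 0.31 ± 0.16 for Nkx2-1, 0.07 ± 0.12 for Pax8, 0.34 ± 0.15 for Foxe1 and 0.12 ± 0.20 for Hhex. The standard errors of these 4 factors ran from 0.12 to 0.20, against a median of 0.17 over all genes tested.

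Release and deiodination genes had 0 of 10 past the test. The cathepsins that digest thyroglobulin stood at -0.57 ± 0.19 for Ctsk, -0.30 ± 0.10 for Ctsl, 0.29 ± 0.10 for Ctsb and 0.11 ± 0.09 for Ctsd. Genes of TSH receptor and cAMP signalling (0 of 7) and thyroid hormone receptors and response genes (0 of 5) also had none. Calca, calcitonin, stood at 0.42 ± 0.13 (adjusted p = 0.0766, edgeR). Of 13 C cell and neuroendocrine genes 11 were above 0, with a median of 0.22, against 0.03 over all genes tested. Pth stood at -0.12 ± 0.32 and the parathyroid list at a median of -0.06, with 0 of 4 past the test. Chga, a granin gene counted in the parathyroid list, stood lowest there at -0.93.

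Nuclear-receptor target genes that respond to PFOS in rodent liver were measured in the thyroid as well. Genes of drug metabolism under CAR and PXR had 0 of 16 past the test with a median of 0.02, or -0.05 with the covariate. PPAR targets and peroxisomal oxidation genes had 0 of 16 with a median of 0.01, or 0.02 with the covariate. The liver gene Alb had counts in every library compared, and whether the counts of these 2 lists arose in thyroid cells was not tested. Mitochondrial fatty acid oxidation had 0 of 18 (median 0.12, or 0.04 with the covariate), where Cpt2, carnitine palmitoyltransferase 2, stood at 0.44 ± 0.14 (adjusted p = 0.0803, edgeR). Lysosomal genes (0 of 29, median 0.05), cell cycle genes (0 of 11, median -0.21), p53 and apoptosis genes (0 of 12, median -0.01) and immediate early genes (0 of 9, median 0.01) had no member past the test. With the covariate these medians were -0.05, 0.02, 0.09 and 0.44, in that order, again with no member past the test. Endothelial (0 of 12, median -0.20), smooth muscle and pericyte (0 of 3, median -0.45), lymphocyte and thymus (0 of 2, median -0.50), fat cell (0 of 5, median -0.10), skeletal muscle (0 of 3, median 0.98) and trachea and cartilage (0 of 1, -0.58) lists had none either. In the same order, their values with the covariate were 0.01, -0.04, -0.25, -0.17, 0.52 and -0.88.

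The remaining lists were circadian clock genes (0 of 5, median 0.25), epithelial junction and keratin genes (0 of 13, median 0.06), nuclear receptors for lipids and xenobiotics (0 of 3, median -0.02) and growth factor signalling in the thyroid (0 of 17, median -0.01). Under the covariate their medians were 0.17, -0.03, 0.36 and -0.02. Counted over all 40 lists, 29 had no call, 3 had at least 1 gene that rose and 9 had at least 1 that fell.

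**Figure D5:**
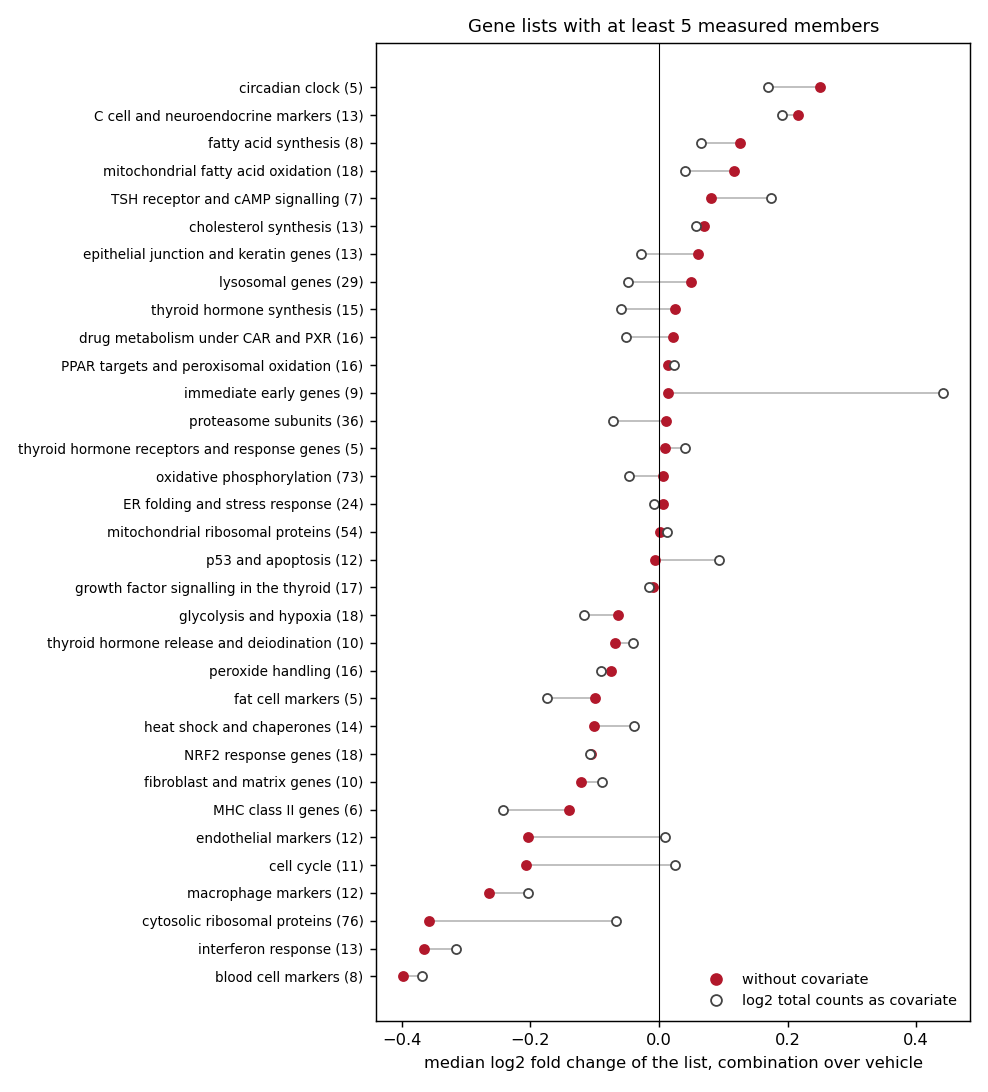
Median log2 fold change, combination over vehicle, of the 33 gene lists with at least 5 measured members (y axis, number measured in parentheses), without (filled) and with (open) log2 total counts as a covariate. The ribosomal protein list stood at -0.36 without and -0.07 with the covariate, the interferon response list at -0.37 and -0.32, and the blood cell list at -0.40 and -0.37.

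How the called genes followed depth inside single treatment groups was computed after their values were seen, as a description. Among the 12 combination libraries, the level of 66 of the 101 genes that fell rose with log2 total counts, with a median slope of 0.04 log2 units per doubling, and the level of 34 of the 49 genes that rose fell with it (median slope -0.15). Among the 12 vancomycin libraries the counts were 100 and 45, with median slopes of 0.57 and -0.42. Among the 12 vehicle libraries they were also 100 and 45, with median slopes of 0.36 and -0.21. The 10 PFOS libraries were not summarised in this way. Among the genes that rose, most of the slopes in these libraries were negative, as -0.46 for Pdrg1, and a smaller part were positive, as 0.34 for Fads1. Of all 5091 genes, 48% had a positive slope in the combination, 48.9% in the vancomycin and 49.5% in the vehicle libraries. The ribosomal protein list had a median slope of 0.02 in the combination, 0.48 in the vancomycin and 0.33 in the vehicle libraries. The difference in slope between the groups was not tested. The part of depth in the difference between treatments was not tested beyond the fits given here.

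Set beside the single compounds, which share the 12 vehicle libraries as controls, the ribosomal protein list had a median log2 fold change of -0.36 for the combination, -0.30 for PFOS and 0.03 for vancomycin. With the covariate these were -0.07, -0.12 and 0.17. Mean depth was 378578 ± 111728 counts in combination libraries (n = 12), 506273 ± 112227 in PFOS libraries (n = 10) and 541399 ± 139342 in vancomycin libraries (n = 12). Combination over vancomycin, a contrast without vehicle libraries, gave the list a median of -0.39 (71 of 76 below 0), or -0.23 with the covariate, and combination over PFOS one of -0.07. Sod1 stood at -0.53 for the combination, -0.36 for PFOS and -0.16 for vancomycin, and Mgp at -0.70, -0.41 and 0.04. For Mrpl1 the values were 0.66, 0.04 and 0.20, and for Fads1 0.53, -0.06 and 0.00. RT1-Db1 stood at -0.64, -0.20 and -0.07.

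Whether the combination departed from the sum of the single-compound effects on the log2 scale was tested as an interaction. edgeR called 0 of 5091 genes (smallest adjusted p = 1, 205 at an unadjusted p under 0.05), and 0 with the covariate (275 at an unadjusted p under 0.05). DESeq2 and limma also called 0. Genes such as Mrpl1 and Fads1, whose single-compound values were nearer to 0, did not pass a test of that difference.

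The same list was read in the other 3 tissues, beside the ratio of depth between combination and vehicle libraries. In hypothalamus the ratio of mean totals, combination over vehicle, was 0.588, and the ribosomal protein list had a median log2 fold change of -0.42 with 73 of 76 genes below 0. In pituitary the ratio was 1.6, the median 0.21 and 0 of 76 genes were below 0. In liver the ratio was 1.79, the median 0.21 and 13 of 76 genes were below 0. In thyroid the ratio was 0.475 and the median -0.36. In all 4 tissues the list was lower where the combination libraries were the shallower ones and higher where they were the deeper ones. With 4 tissues this is a description and was not tested.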

How the data were processed

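The deposited files hold whole-number counts per gene and library, made by the authors from 3' bulk RNA barcoding libraries sequenced on an Illumina NovaSeq instrument, per the labels' protocols. Per the submitters' processing notes, rn6 was the genome build and BWA (version 0.7.4.4) was used, neither with a stated role, and how reads were assigned to genes or duplicates treated is not given in the sources used here. Of 17483 genes, those passing edgeR's filterByExpr (minimum count 10) were tested. Samples were grouped by their titles. The 46 thyroid libraries with at least 100000 counts were fitted together with 1 mean per treatment (edgeR 4.0.16, TMM scaling, robust quasi-likelihood fit, R 4.3.3), leaving out 2 PFOS libraries of 43573 and 4473 counts, and the contrast was combination minus vehicle with Benjamini-Hochberg adjustment over all genes and a threshold of 0.05. The same model with centred log2 total counts was fitted beside it. DESeq2 1.42.0, limma 3.58.1 (voom with quality weights), other filters, depth minima, thinning, plate column and omission of single libraries were the alternatives. A fold change rests on totals of 208981 counts or more per library, which limits its precision for scarce genes.

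Named genes are the 15 largest rises and 15 largest falls among called genes whose mean count reached 5 in the group where it was higher, all measured genes of the thyroid hormone synthesis and thyroid transcription factor lists, and up to 4 genes by p-value of each other list, apart from genes that are not reported here. Genes, lists and the compared groups were chosen with earlier results of these data known. Promoter letters come from RefSeq (GRCr8), and symbols were matched to RefSeq.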

Additional observations from a re-analysis of the deposited data

How the results depend on the processing

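The 150 genes past the test (49 higher, 101 lower) became 0 (0 higher, 0 lower) in 4 settings: log2 total counts as a covariate, the same covariate with only the 2 groups or in DESeq2, and the range of totals that both groups share. DESeq2 without the covariate called 309 (119 higher, 190 lower). Fewer passed with libraries thinned to a common depth (99, of which 23 higher), with plate column as a factor (64, of which 23 higher and 41 lower) and without the 5 combination barcodes of more than 1 G or C (35, of which 12 higher and 23 lower). With no filter on low counts 8 were higher. Leaving out 1 library gave 60 to 268 genes (12 to 98 higher, 48 to 171 lower). The other settings, DESeq2 size factors, limma voom, the 2 groups alone, depth minima of 300000 and 500000 counts and all libraries kept, gave 120 to 161 genes. The cause of these differences was not tested. The interaction count was 0 in every setting run.

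Of the 150 genes, 143 kept their sign with the covariate, 141 with it in DESeq2, and 130 of 148 tested in the shared range of totals. Among the 47 of them that the naming rule picked, the sign turned for 3 with the covariate (Siah1 0.33, Ptpre 0.17, Bcam 0.0656), for 4 with it in DESeq2 (Siah1 0.29, Ptpre 0.17, Gnl1 0.0352, Bcam 0.0702) and for 4 in the shared range of totals (Siah1 0.17, Gnl1 0.16, Rab18 0.15, Atp5mc3 0.0204). The depth difference was -0.74 on the log2 scale without the 5 unlike barcodes (permutation p = 0.0106). No paired analysis was possible because combination and vehicle libraries carry no shared replicate number within the thyroid; each plate column held 1 library of either group, and the fit with plate column is given above.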
